A study of Mus musculus with 282 samples.

Results

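The genes described here are 8 regulators of entry into the cell cycle: the D cyclins Ccnd1, Ccnd2 and Ccnd3, their kinases Cdk4 and Cdk6, the inhibitors Cdkn1a (p21) and Cdkn1b (p27), and the transcription factor gene Myc. They were chosen by name and not by a rule on their values, though earlier results of these data were known. Each was found in the count table by the Ensembl gene ID given with its symbol, so that 8 of 55450 genes are followed. The IDs are ENSMUSG00000070348 (Ccnd1), ENSMUSG00000000184 (Ccnd2), ENSMUSG00000034165 (Ccnd3), ENSMUSG00000006728 (Cdk4), ENSMUSG00000040274 (Cdk6), ENSMUSG00000023067 (Cdkn1a), ENSMUSG00000003031 (Cdkn1b) and ENSMUSG00000022346 (Myc). The samples were granulocyte-monocyte progenitors (GMPs), the marrow cells that give rise to neutrophils and monocytes, taken one cell at a time from mice of both sexes, aged 12 to 19 weeks that were homozygous for GFP-p65 and heterozygous for H2BmCherry. All groups carried both alleles, so that every cell carried a tagged p65, the NfκB subunit whose movement into the nucleus can be followed by microscopy. The cells were cultured for 8 h under a confocal microscope with tumour necrosis factor (TNF) as the stimulus or with the stimulus given as blank, picked one by one with a micromanipulator and sequenced by Smart-Seq2. The authors gave each cell a response class (oscillatory, transient, sustained, non-responsive, outlier or unclear), by rules not stated in the labels, and a cell cycle phase, and the question that these labels pose is whether the 8 genes differ with stimulus, with the kind of NfκB response and with phase.

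In early G1 phase a D cyclin binds Cdk4 or Cdk6, and the active kinase phosphorylates the retinoblastoma protein, which releases E2F factors and starts the programme of S phase. Cdkn1b and Cdkn1a bind cyclin-kinase complexes and hold back the kinases of late G1, and Cdkn1a is a classical target of p53. Myc promotes growth and cell cycle entry, and it binds DNA with its partner Max, preferentially at the E-box CACGTG. In blood progenitors Cdk6 is known for a role in cell fate beyond the cell cycle, and Ccnd1 is a textbook target of NfκB in other cells.

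The promoters of Cdk4 and Cdk6 are shown because these genes varied together with Myc from cell to cell, as described further on. Each run is the 250 bases upstream of the gene's start in RefSeq on GRCm38.p6, on the plus strand, chr10:127063285-127063534 for Cdk4 and chr5:3343643-3343892 for Cdk6, and capitals mark each CACGTG.
Cdk4: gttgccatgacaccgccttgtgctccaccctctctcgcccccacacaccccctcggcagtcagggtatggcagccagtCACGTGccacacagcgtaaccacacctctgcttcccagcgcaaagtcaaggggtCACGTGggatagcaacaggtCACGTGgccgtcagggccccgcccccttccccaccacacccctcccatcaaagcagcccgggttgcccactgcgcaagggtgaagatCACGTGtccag
Cdk6: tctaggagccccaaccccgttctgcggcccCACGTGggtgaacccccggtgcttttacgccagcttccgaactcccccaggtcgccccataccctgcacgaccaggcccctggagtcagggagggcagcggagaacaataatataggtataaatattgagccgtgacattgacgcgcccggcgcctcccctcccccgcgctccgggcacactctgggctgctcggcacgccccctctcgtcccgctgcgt

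The Cdk4 window holds 4 copies of CACGTG, whose first bases lie 172, 118, 98 and 11 bases upstream of the start, and the Cdk6 window holds 1, at 220 bases. CACGTG reads the same on both strands. Among 32851 promoter windows of the same length, 6.02% held the motif at least once and 0.429% held it 2 or more times. The windows of Ccnd3, Cdkn1a and Cdkn1b held no copy. The NfκB motif (kappaB, searched on both strands) was in none of the windows of these 5 genes, against 7.25% of all windows. A match of letters is a description of the window and no measurement of binding, and a window without one is silent on the factor. Ccnd1, Ccnd2 and Myc are named only.

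The authors' cell tables list 238 cells, 178 with TNF and 60 with blank, from 2 experiments. The 1-plate experiment gave 67 cells (51 TNF, 16 blank), and the 2-plate experiment gave 171, of which 83 on its Plate1 (59 TNF, 24 blank) and 88 on its Plate2 (68 TNF, 20 blank). A cell had between 182301 and 3380416 reads in genes. On Plate2 of the 2-plate experiment, 26 cells had fewer than 8000 detected genes, against 2 in all the other cells, and 24 of these 28 were TNF cells. Levels are given as CPM, the reads of a gene scaled to a total of 1000000 reads in genes, for single cells or for the summed cells of a condition. Transcript lengths were not used here, so levels are compared within a gene and never between genes. Cells of an experiment are no replicates of a condition, so the tests compare sums per experiment, with n = 2 experiments and the experiment as a term in the model. Nothing in the labels says whether the experiments used separate animals, and the p-values measure only the spread between these sums. The labelled cell type was not checked against marker genes, because no reference used here pairs the files' gene IDs with symbols.

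All 8 genes were read in these cells, and 79 of 238 cells held reads of all 8. Cdk6 was detected in 238 of 238 cells, Cdkn1a in 237, Cdk4 in 236, Ccnd2 and Ccnd3 in 230 each and Myc in 217. Cdkn1b was detected in 175 cells (73.5%, exact 95% binomial interval 67.4% to 79.02%) and Ccnd1 in 107 (44.96%, 38.5% to 51.5%). Intervals cover counting error only, since cells are no replicates of a condition. The reads carry no molecular identifiers. A D cyclin was thus read in all cells but 1: 103 cells held reads of all 3 D cyclins, 120 held Ccnd2 with Ccnd3, and no cell held Ccnd1 as its only D cyclin, a count of 0 that leaves room for 1.26% of cells (3 of 238) with such reads. With each cell thinned to 400000 reads, which 217 cells reached, Ccnd1 was detected in 40.6% and Cdkn1b in 68.7%.

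**Figure D1:**
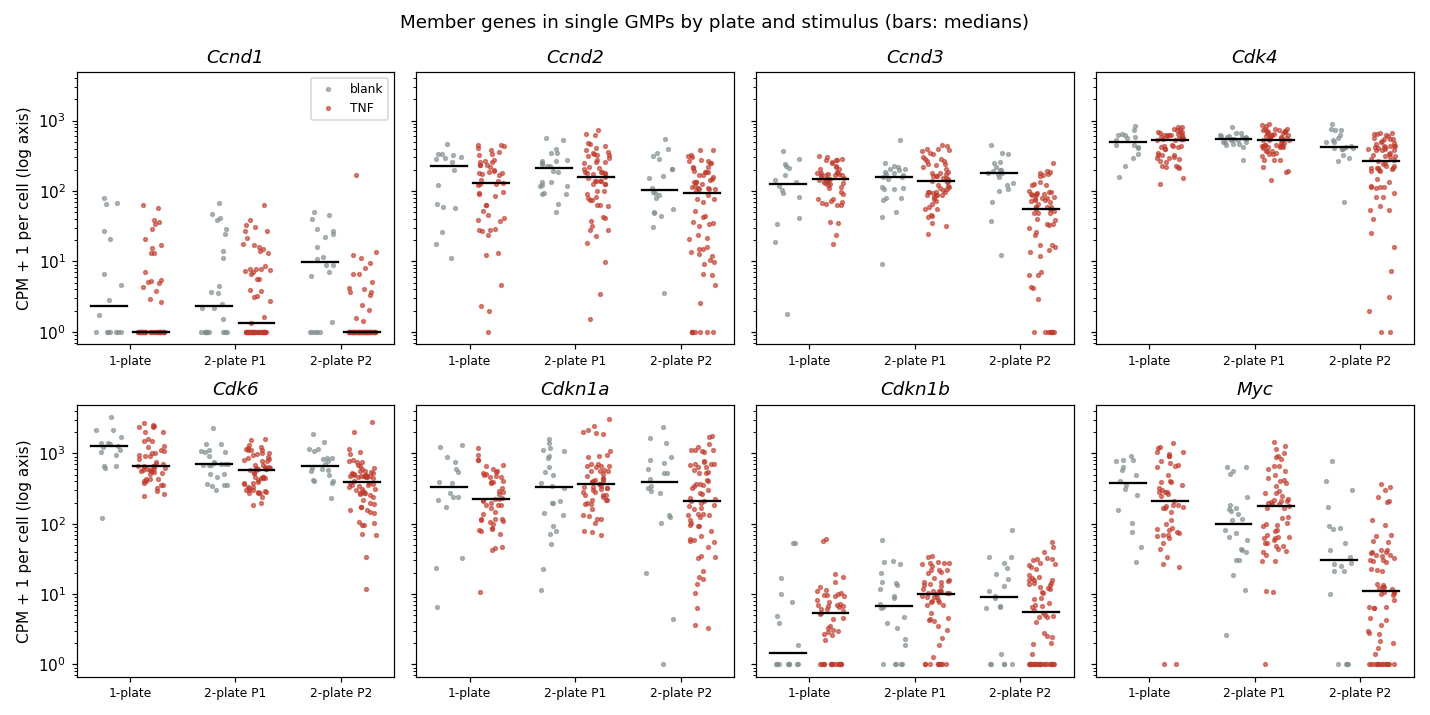
Level of each gene in each of 238 cells as CPM + 1 on a log axis, by plate (1-plate experiment, Plate1 and Plate2 of the 2-plate experiment) and stimulus, with bars at the medians. Ccnd1 lies at 0 in many TNF cells, and Myc is lowest on Plate2 of the 2-plate experiment, where its summed level was 60.7 CPM.

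Between TNF and blank, 0 of the 8 genes passed the test (edgeR's quasi-likelihood test, Benjamini-Hochberg adjusted p under 0.05 over all genes), where 69 of 15479 genes passed (0.446%). At an unadjusted p under 0.05 stood 2 of the 8, Ccnd1 and Cdk6, against 10.9% of all genes. DESeq2 passed 1, Ccnd1, where it passed 4.35% of all genes. The fitted difference was below 0 for 7 of the 8, and its median was -0.27 on the log2 scale beside 0.03 over all genes. Scaling by the added spike-in RNAs in place of the genes moves the median of all genes to 0.42 and turns the sign of 5 of the 8 (Ccnd2, Ccnd3, Cdk4, Cdkn1a and Cdkn1b), so these small differences are relative to the other genes of the cell.

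**Figure D2:**
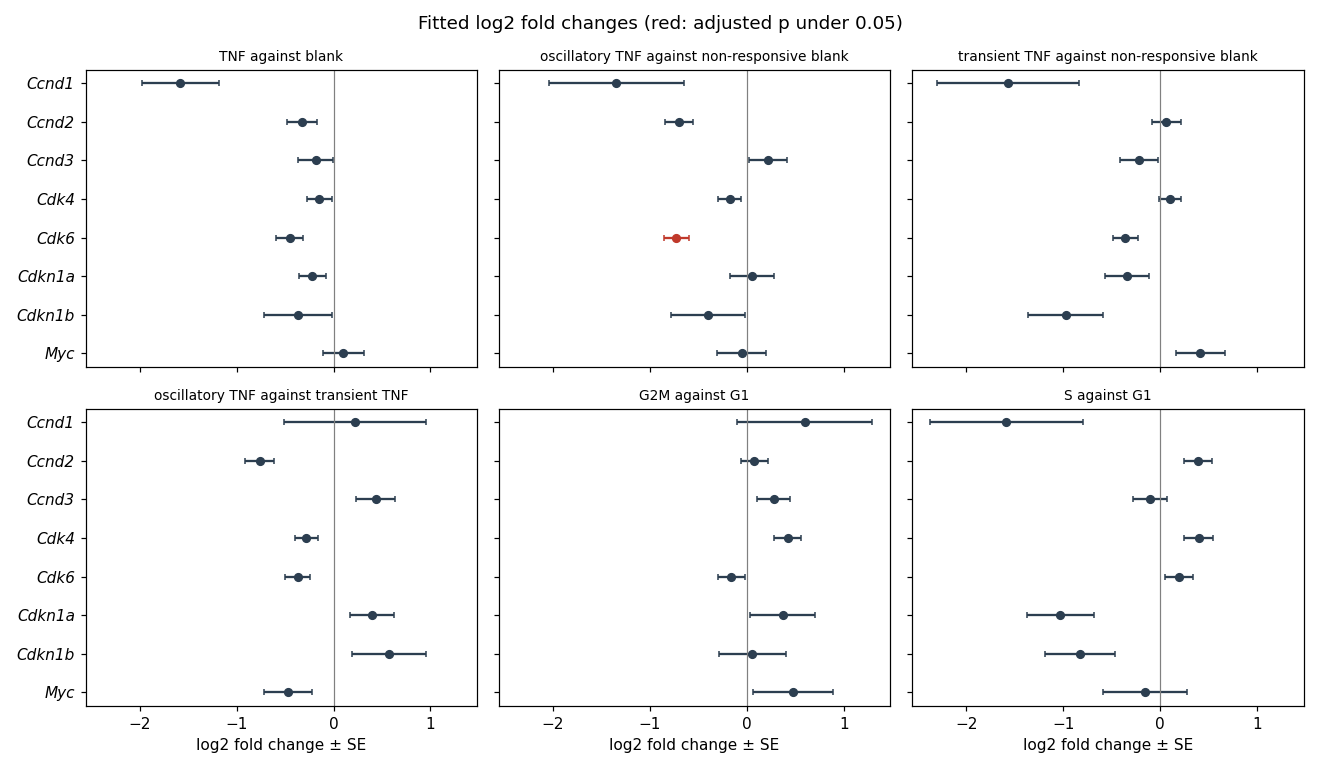
Fitted log2 fold change ± SE of each gene in 6 comparisons (edgeR on sums per experiment), red where the adjusted p is under 0.05. The single red point is Cdk6 between oscillatory TNF cells and non-responsive blank cells, at -0.73.

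Ccnd1 was lower with TNF on every plate. Its summed level was 6.11 CPM in TNF cells and 13.8 CPM in blank cells of the 1-plate experiment, 5.74 and 15.03 CPM on Plate1 of the 2-plate experiment, and 1.93 and 17.2 CPM on its Plate2. The TNF sums lie below the blank sums on all 3 plates, with no overlap. How many of all genes show such a gap was not counted. The fitted difference was -1.58 ± 0.40 (log2 fold change ± SE, adjusted p = 0.258, edgeR; 0.0124 by DESeq2). The share of cells with at least 1 read was lower as well: 20 of 51 TNF cells and 9 of 16 blank cells of the 1-plate experiment held a read, as did 30 of 59 and 15 of 24 on Plate1, and 18 of 68 and 15 of 20 on Plate2. Counted from 5 reads, the share on Plate1 turned, with 25 of 59 TNF cells (42.4%) and 9 of 24 blank cells (37.5%). In cells thinned to 400000 reads the shares with a read were 39.6% (TNF) and 46.7% (blank) in the 1-plate experiment, with 43.1% and 47.8% for Plate1 and 22.2% and 73.7% on Plate2. The levels are low and uneven, since the highest cell gave 22.9% of the TNF reads and 27.6% of the blank reads in the 1-plate experiment. In cells of 8000 or more detected genes, a choice made after seeing the data, the difference was -1.69 (adjusted p = 0.157).

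The summed level of Ccnd1 was lower in both main TNF classes than in non-responsive blank cells. The sums of the 1-plate experiment were 4.18 CPM in 20 oscillatory TNF cells, 8.29 CPM in 25 transient TNF cells and 12.2 CPM in 13 blank cells of the non-responsive class. The other experiment gave 6.56 CPM in 36, 2.18 CPM in 51 and 16.8 CPM in 34 cells. The blank class is highest in each experiment, and the order of the TNF classes is not the same. In the 1-plate experiment 1 cell gave 38.9% of the reads of the blank class. Single cells did not keep this order on Plate1. There the median cell was at 4.45 CPM in oscillatory TNF and 2.02 CPM in non-responsive blank cells, and 13 of 22 against 7 of 18 held at least 5 reads. In the 1-plate experiment and on Plate2 the median oscillatory cell was at 0 CPM, against 0.741 and 7.80 CPM. Against non-responsive blank the differences were -1.35 ± 0.70 for oscillatory cells (adjusted p = 0.409, edgeR) and -1.57 ± 0.73 for transient cells (adjusted p = 0.689, edgeR), with standard errors that leave a wide range.

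Ccnd2, a D cyclin that was read in nearly every cell, had its lowest level in oscillatory TNF cells on each plate. Its sum in the 1-plate experiment was 103 CPM in oscillatory TNF cells, 204 CPM in transient TNF cells and 190 CPM in blank cells without a response. On Plate1 of the 2-plate experiment the values were 141, 204 and 235 CPM, and on its Plate2 they were 85.6, 182 and 150 CPM, with the classes named in the same sequence. The oscillatory class is lowest on every plate, and its highest plate (141 CPM) lies under the lowest plate of each of the other classes. How many of all genes have a class set apart like this was not counted. The median cell was also lower in the oscillatory class, at 40.8 CPM against 187 CPM in transient TNF cells of the 1-plate experiment. In the 2-plate experiment the values were 88.2 and 136 CPM. The ranges of the cells overlap almost fully, in the 1-plate experiment from 0.975 to 446 CPM for the oscillatory and from 26.3 to 443 CPM for the transient class.

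Between oscillatory and transient TNF cells the difference for Ccnd2 was -0.76 ± 0.15, with an unadjusted p of 0.00184 and an adjusted p of 0.125 (edgeR), so that it did not pass. In this comparison 0 of the 8 genes passed, where 33 of 16586 genes passed (0.199%). DESeq2 gave Ccnd2 an adjusted p of 0.002, where 3.83% of all genes passed, and edgeR after a stricter filter on low counts gave 0.0398, where 3.1% of all genes passed. Against non-responsive blank, oscillatory cells were at -0.70 ± 0.15 (adjusted p = 0.0817, edgeR; 0.00358 by DESeq2) and transient cells at 0.06 ± 0.15 (adjusted p = 0.967, edgeR). Both comparisons share the same blank sums. With phase as a further term, the difference of oscillatory from transient cells was -0.88 (adjusted p = 0.233, edgeR). In the whole stimulus groups Ccnd2 was at 153 CPM with TNF and 212 CPM with blank in the 1-plate experiment, and at 162 and 188 CPM in the 2-plate experiment, a difference of -0.32 ± 0.16 (adjusted p = 0.555, edgeR).

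Ccnd3, the third D cyclin, showed no common direction with TNF. Its sum was 153 CPM in TNF and 141 CPM in blank cells of the 1-plate experiment, and 162 and 161 CPM on Plate1 of the 2-plate experiment. On Plate2 it was 79.7 and 197 CPM, and this plate alone carried the lower TNF level. The fitted difference was -0.18 ± 0.18 (adjusted p = 0.832, edgeR), and it was 0.06 without Plate2. Plate2 also held most of the cells with few detected genes. Cells under 8000 detected genes had a summed level of 48.6 CPM of Ccnd3, against 142 CPM over all cells, and 1 cell gave 43.73% of their reads. On Plate2 the 26 such cells were at 25.74 CPM and held 342 Ccnd3 reads, beside 7230 in the TNF cells of that plate. In cells of 8000 or more detected genes the fitted difference was -0.11 (adjusted p = 0.906, edgeR). How far the cells with few detected genes account for the lower TNF level on Plate2 was not tested. Between oscillatory and transient TNF cells Ccnd3 differed by 0.43 ± 0.20 (adjusted p = 0.539, edgeR), opposite in sign to Ccnd2. Its sum was higher in oscillatory cells on each plate (172 against 132 CPM, 196 against 155 CPM and 97.8 against 94.7 CPM). The median oscillatory cell was higher in the 1-plate experiment (163.1 against 129.5 CPM) and on Plate1 (168.3 against 137.7 CPM). On Plate2 it was lower (63.96 against 75.49 CPM), and 1 cell gave 22.46% of the oscillatory reads there.

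Of the kinases, Cdk6 was lower in oscillatory TNF cells than in non-responsive blank cells. Its sum was 735 CPM in oscillatory TNF cells and 1393 CPM in non-responsive blank cells of the 1-plate experiment. On Plate1 of the 2-plate experiment the values were 521 and 680 CPM, and on Plate2 they were 434 and 865 CPM. The oscillatory class lies below the blank class on each plate, but not below every blank sum of the other plates, since the whole 1-plate experiment had more Cdk6 (1033 CPM) than the 2-plate experiment (636 CPM). The difference was -0.73 ± 0.13 (adjusted p = 0.0465, edgeR), and Cdk6 was the only one of the 8 genes to pass here, where 390 of 16586 genes passed (2.35%). DESeq2 passed Cdk6 (adjusted p = 7.2e-05) and Ccnd2, and the stricter filter passed the same pair (8.75% of all genes); by DESeq2 7.75% of all genes passed.

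This result sits close to the threshold. Cdk6 did not pass in sums per plate without the 1-plate experiment (-0.54, adjusted p = 0.24), without Plate1 (-0.83, 0.0794) or without Plate2 (-0.64, 0.13) of the 2-plate experiment, nor with phase as a further term (-0.65, 0.152) or without the experiment as a block (-0.76, 0.549; edgeR throughout). With spike-in scaling it was -0.14, while the median of all genes stood at 0.56.

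Transient TNF cells lay between these classes for Cdk6. Their sum was 1024 CPM in the 1-plate experiment, and 660 and 626 CPM on Plate1 and Plate2 of the 2-plate experiment. On each plate the order was oscillatory, transient, non-responsive blank, from low to high. Neither step passed the test: transient cells differed from non-responsive blank by -0.36 ± 0.13 (adjusted p = 0.583, edgeR) and oscillatory cells from transient ones by -0.37 ± 0.13 (adjusted p = 0.387, edgeR). Against non-responsive blank, 0 of the 8 genes passed in transient cells, where 22 of 16586 genes passed (0.133%), and DESeq2 also passed 0, where 1.86% of all genes passed.

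Over whole stimulus groups, Cdk6 was at 925 CPM with TNF and 1351 CPM with blank in the 1-plate experiment, at 622 and 730 CPM on Plate1 and at 541 and 806 CPM on Plate2. The TNF sum is lower on each plate. The difference was -0.45 ± 0.14 (adjusted p = 0.344, edgeR). With phase as a term it was -0.49 ± 0.12 (adjusted p = 0.086, edgeR; 0.016 by DESeq2). At equal phase 0 of the 8 genes passed by edgeR, where 255 of 17069 genes passed (1.49%), and DESeq2 passed 1, Cdk6, where 6.59% of all genes passed. On sums per plate edgeR passed Cdk6 as well (-0.48, adjusted p = 0.0462), where 3.53% of all genes passed.

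Cdk4, the other partner of the D cyclins, was lower in oscillatory than in transient TNF cells on each plate, and its stimulus groups lay close together. Its sum was 461 CPM with TNF and 493.1 CPM with blank in the 1-plate experiment, and 439 and 516 CPM in the 2-plate experiment, a difference of -0.15 ± 0.13 (adjusted p = 0.795, edgeR). Oscillatory TNF cells were at 408, 453 and 320 CPM on the 1-plate experiment's plate, Plate1 and Plate2, and transient TNF cells at 519, 602 and 420 CPM. The difference was -0.28 ± 0.12 (unadjusted p = 0.0496, adjusted p = 0.491, edgeR). The highest cell gave no more than 13.2% of the Cdk4 reads in either stimulus group of any plate.

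**Figure D3:**
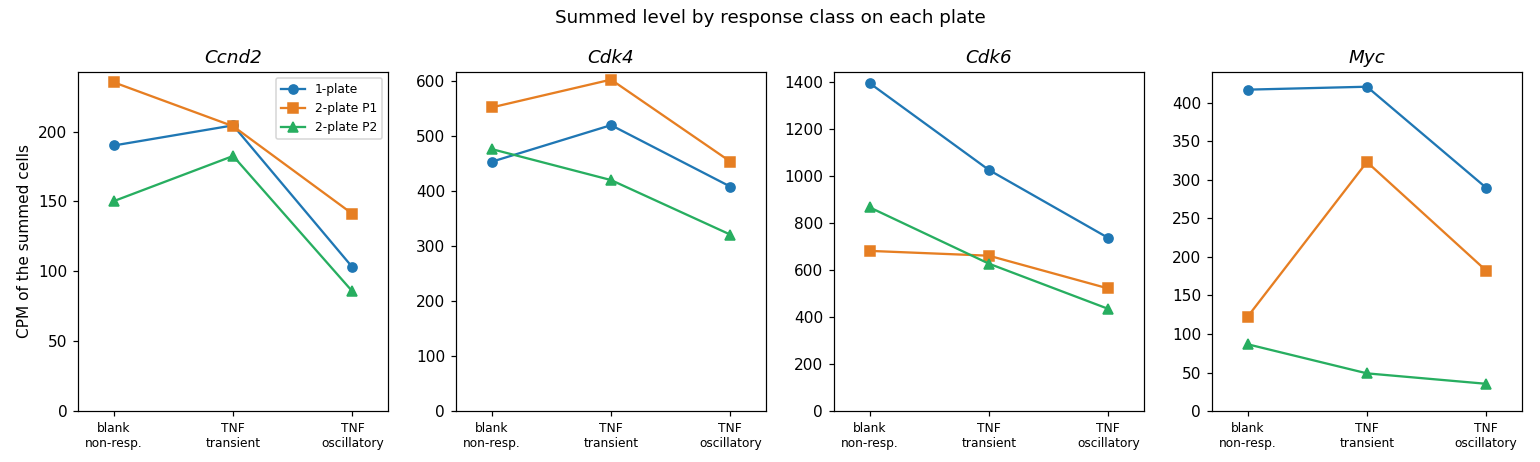
Summed level in CPM of Ccnd2, Cdk4, Cdk6 and Myc in non-responsive blank, transient TNF and oscillatory TNF cells, one line per plate, axes from 0. On each of the 3 plates the oscillatory cells lie below the transient cells for each of these 4 genes.

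Of the inhibitors, Cdkn1a showed no common direction with TNF. Its sum was 336 CPM with TNF and 414 CPM with blank in the 1-plate experiment, 575 and 560 CPM on Plate1 and 494 and 649 CPM on Plate2 of the 2-plate experiment. The difference was -0.22 ± 0.14 (adjusted p = 0.678, edgeR). Single cells spread far: from 2.26 to 3089 CPM in TNF cells, with a median of 281 CPM, and from 0 to 2329 CPM in blank cells, with a median of 342 CPM. One blank cell gave 25.1% of the Cdkn1a reads of the blank cells on Plate2. Between oscillatory and transient TNF cells Cdkn1a differed by 0.40 ± 0.23 (adjusted p = 0.637, edgeR).

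Cdkn1b was read at low levels in every group. Its sum was 7.29 CPM with TNF and 9.99 CPM with blank in the 1-plate experiment, and 10.7 and 13.3 CPM in the 2-plate experiment, a difference of -0.36 ± 0.35 (adjusted p = 0.821, edgeR). Single cells did not keep this direction. The median TNF cell was higher than the median blank cell in the 1-plate experiment (4.35 against 0.455 CPM) and on Plate1 (8.87 against 5.82 CPM). On Plate2 it was lower (4.62 against 8.01 CPM). With the highest cell of each sum left out, the mean log2 ratio of TNF to blank over both experiments moved from -0.38 to -0.12, and on Plate1 it was 0.25, with the opposite sign. In transient TNF cells Cdkn1b was at 4.68 CPM against 11.8 CPM in non-responsive blank cells of the 1-plate experiment, and at 9.16 against 14.4 CPM in the 2-plate experiment. The sum of the transient class is lower in both experiments, with a difference of -0.97 ± 0.39 (unadjusted p = 0.0433, adjusted p = 0.646, edgeR). Single cells of the 1-plate experiment went the other way. There the median was 4.80 CPM in transient and 0.909 CPM in non-responsive blank cells, and 17 of 25 against 7 of 13 held a read. In the 2-plate experiment the medians were 4.94 and 6.77 CPM. The count behind this is small: the 13 non-responsive blank cells of the 1-plate experiment held 144 Cdkn1b reads in all, 47.9% of them in 1 cell.

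Myc levels differed widely between plates. Its summed level was 382 CPM in the 1-plate experiment, 248 CPM on Plate1 and 60.7 CPM on Plate2 of the 2-plate experiment. Between TNF and blank it was 365 and 434 CPM in the 1-plate experiment, 279 and 158 CPM on Plate1, and 43.3 and 101.5 CPM on Plate2. TNF cells were lower on 2 plates and higher on Plate1, and the fitted difference was 0.10 ± 0.21 (adjusted p = 0.949, edgeR). Without Plate1 it was -0.66, the opposite sign. In cells of 8000 or more detected genes the level of Myc on Plate2 of the 2-plate experiment was 64.2 CPM, still the lowest of the 3 plates. Oscillatory TNF cells had less Myc than transient ones on each plate (290 against 421 CPM, 182 against 323 CPM and 35.4 against 48.9 CPM), a difference of -0.47 ± 0.25 (adjusted p = 0.606, edgeR).

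Among the 8 genes, the sums of Ccnd2, Cdk4, Cdk6 and Myc were lower in oscillatory than in transient TNF cells on each of the 3 plates. The sums of Ccnd3 and Cdkn1b were higher on each. How many of all genes keep 1 direction on the 3 plates was not counted, so this agreement has no background here. For Cdkn1b, 1 cell gave 50.6% of the oscillatory reads of the 1-plate experiment, and with the highest cell of each sum left out the mean log2 ratio over both experiments moved from 0.53 to 0.18. The median oscillatory cell held less Cdkn1b than the median transient cell in the 1-plate experiment (3.95 against 4.80 CPM) and on Plate2 (3.50 against 3.91 CPM). For Ccnd3 the median oscillatory cell was lower on Plate2 only (63.96 against 75.49 CPM). Of the 8 genes 3, Ccnd2, Cdk4 and Cdk6, had an unadjusted p under 0.05 (edgeR), against 10.1% of all genes. The median difference over the 8 genes was -0.03 beside -0.04 over all genes. The classes had different phase make-ups, given here as counts with no test. Of 56 oscillatory TNF cells the authors placed 16 in G1, 36 in G2M and 4 in S, and of 76 transient TNF cells 18, 39 and 19. Of 47 non-responsive blank cells 12 were in G1, 27 in G2M and 8 in S. S phase thus held 7.14%, 25% and 17.02% of these classes.

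Across phases, no difference of the 8 genes passed in the sums per experiment, stimulus and phase (edgeR). The phases are the authors', by a rule that none of the sources used here gives, so a member may have entered them, and the differences that follow describe those classes. Between G2M and G1, 0 of the 8 genes passed, where 230 of 17069 genes passed (1.35%), and between S and G1, 0 of the 8 passed, where 387 passed (2.27%). By DESeq2 1 of the 8 passed between S and G1, Cdkn1a, where 7.94% of all genes passed, and 0 passed between G2M and G1, where 4.38% did. Unadjusted p-values under 0.05 were found for 1 of the 8 in G2M against G1 (11.4% of all genes) and for 4 in S against G1 (14.7% of all genes).

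Cdk4 was lowest in G1 on each plate. Its sum was 312 CPM in G1, 564 CPM in S and 491 CPM in G2M of the 1-plate experiment, and 390, 458 and 494 CPM in the 2-plate experiment. G1 is lowest in both. Within the blank cells of the 2-plate experiment it is not: 5 S cells were at 454 CPM and 14 G1 cells at 479.5 CPM. The differences from G1 were 0.42 ± 0.14 for G2M (adjusted p = 0.276, edgeR) and 0.40 ± 0.15 for S (adjusted p = 0.246, edgeR). On sums per plate, where by edgeR 1 of the 8 passed, the latter was 0.48 ± 0.12 (adjusted p = 0.047, edgeR), where 3.96% of all genes passed. Those sums count the 2 plates of 1 experiment as separate units.

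Ccnd2 was highest in S in the sums of each experiment, though not on Plate2 of the 2-plate experiment (149 CPM in S, 157 CPM in G1). Its sum was 157 CPM in G1, 207 CPM in S and 157 CPM in G2M of the 1-plate experiment, and 163, 185 and 168 CPM in the 2-plate experiment. Relative to G1, S differed by 0.39 ± 0.14 (adjusted p = 0.243, edgeR). Cdk6 was also highest in S in the sums of both experiments, though not on Plate1 (697 CPM in S, 753 CPM in G1), at 1401 CPM against 977 CPM in G1 of the 1-plate experiment and at 686.5 against 673 CPM in the 2-plate experiment, a difference of 0.20 ± 0.15 (adjusted p = 0.571, edgeR). Myc was at 240 CPM in G1, 355 CPM in S and 442 CPM in G2M of the 1-plate experiment and at 151, 122 and 174 CPM in the 2-plate experiment.

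The sums of the inhibitors were lowest in S, apart from Cdkn1a in the 1-plate experiment. Cdkn1a was at 504 CPM in G1, 245 CPM in S and 651 CPM in G2M of the 2-plate experiment, but at 405, 389 and 327 CPM in the 1-plate experiment. The difference of S from G1 was -1.03 ± 0.34 (adjusted p = 0.194, edgeR; 0.0308 by DESeq2). It was -0.45 with at least 10 cells in each sum, which leaves out the 5 blank S cells of the 2-plate experiment and the 9 TNF G1 cells of the 1-plate experiment, and -0.48 without Plate1. Cdkn1b was at 6.60 CPM in G1, 4.66 CPM in S and 9.62 CPM in G2M of the 1-plate experiment. In the 2-plate experiment it was at 12.1, 6.46 and 12.2 CPM. The difference of S from G1 was -0.83 ± 0.36 (adjusted p = 0.33, edgeR). In the 1-plate experiment 1 cell gave 62.2% of the G1 reads of Cdkn1b, and the median cell was higher in S (4.15 CPM) than in G1 (1.31 CPM). The medians of the 2-plate experiment were 2.75 CPM in S and 5.98 CPM in G1. Ccnd1 and Ccnd3 did not keep an order of phases between experiments. Ccnd1 in S was at 6.27 CPM in the 1-plate experiment, above its 1.61 CPM in G1, and at 1.24 CPM in the 2-plate experiment, below its 7.74 CPM in G1. Ccnd3 in S was at 137.5 against 117 CPM in G1 of the 1-plate experiment and at 93.6 against 133 CPM in the 2-plate experiment.

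**Figure D4:**
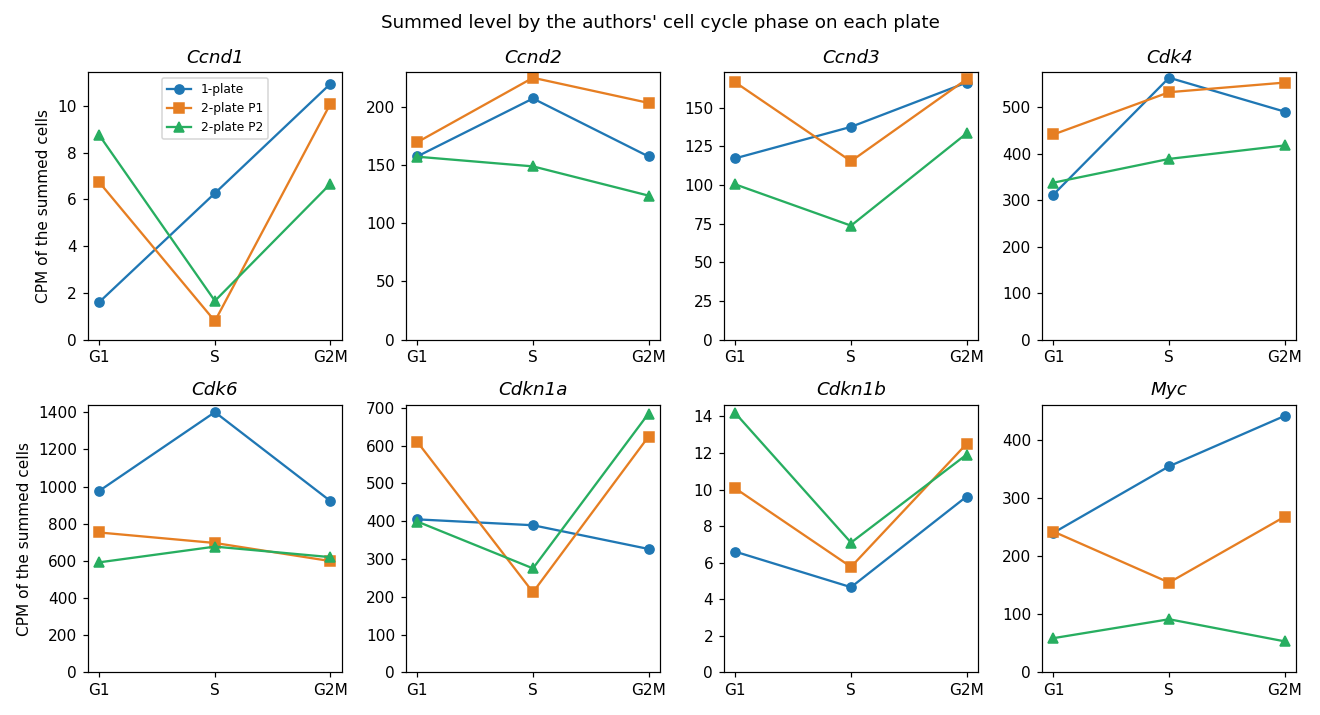
Summed level in CPM of each gene in cells that the authors placed in G1, S and G2M, one line per plate, axes from 0. Cdk4 is lowest in G1 on each plate, with 312 CPM in the 1-plate experiment.

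Whether the TNF difference varied with phase was tested with an interaction term, and 0 of the 8 genes passed, where 0 of 17069 genes passed (0%, with 1394 at an unadjusted p under 0.05). By DESeq2 1 of the 8 passed, Cdkn1a (adjusted p = 0.0252; 0.459 by edgeR), where 2.75% of all genes passed. In the 2-plate experiment Cdkn1a was at 564 CPM with TNF and 354 CPM with blank in G1, at 605 and 752 CPM in G2M, and at 264 and 106 CPM in S. In the 1-plate experiment the values were 411 and 390 CPM in G1, 332 and 309 CPM in G2M, and 276 and 721 CPM in S. The S values point in opposite directions in the experiments, and they rest on 5 and 3 blank cells. The G1 value of blank cells in the 1-plate experiment also rests on 3 cells. Both groups of 3 cells were too few for the fit, so its blank sums for G1 and S came from the 2-plate experiment only.

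From cell to cell, Ccnd2, Cdk4, Cdk6 and Myc varied together. Over 238 cells, with log2(CPM + 1) less the mean of the plate, Pearson's r of the 6 pairs among these genes lay between 0.417 (Ccnd2 and Myc) and 0.484 (Ccnd2 and Cdk4), and Spearman's rho between 0.445 and 0.557. Within single plates r of these pairs lay between 0.226 (Cdk4 and Cdk6 on Plate1 of the 2-plate experiment) and 0.624 (Cdk4 and Myc in the 1-plate experiment). For Cdk4 and Myc it was 0.485 on Plate1 and 0.444 on Plate2. In cells thinned to an equal number of reads, the 6 values lay between 0.403 and 0.484. Over all cells these pairs were not the highest: Ccnd3 and Cdk4 had an r of 0.494. Within plates that pair was at 0.07 in the 1-plate experiment, 0.159 on Plate1 and 0.601 on Plate2. The cells share libraries and differ in depth and in the number of detected genes, with which Cdk4 (r = 0.628), Cdk6 (0.475), Ccnd2 (0.347) and Myc (0.313) also correlated, so these values describe the cells and have no test.

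Cdkn1a stood apart from this group on 2 plates. Its r with Ccnd2 was -0.318 in the 1-plate experiment and -0.229 on Plate1 of the 2-plate experiment, and its r with Myc was -0.257 and -0.166. On Plate2, where 26 cells had few detected genes, the values were 0.083 with Ccnd2, 0.338 with Myc and 0.425 with Cdk6. Ccnd3 was close to 0 with Ccnd2 on Plate1 (-0.061), negative in the 1-plate experiment (-0.149) and at 0.363 on Plate2. The sparse genes Ccnd1 and Cdkn1b had r of -0.018 with each other.

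**Figure D5:**
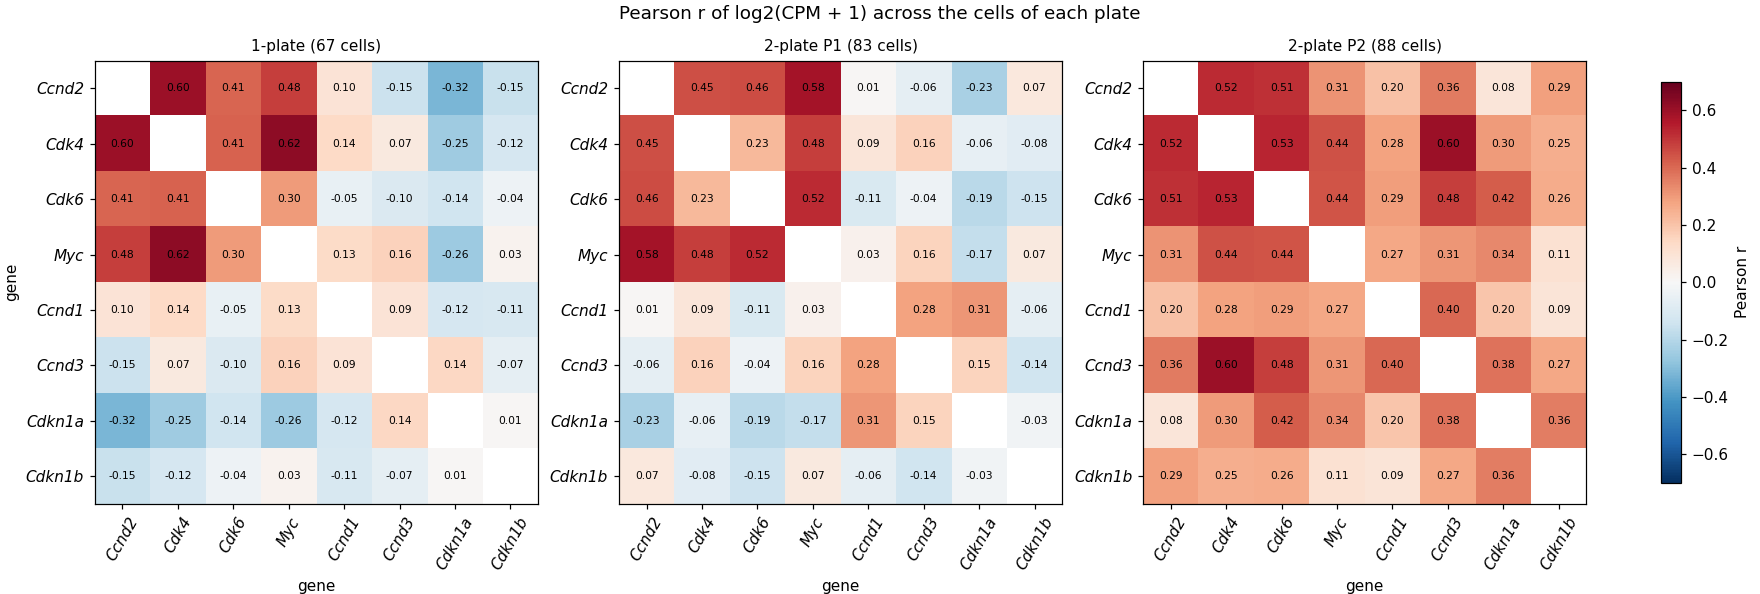
Pearson's r of log2(CPM + 1) between the 8 genes across the cells of each plate (67, 83 and 88 cells), as colour and number. The block of Ccnd2, Cdk4, Cdk6 and Myc is positive on each plate, while Cdkn1a is negative with it on the first 2 plates and positive on Plate2 of the 2-plate experiment.

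With the authors' phase scores, which sum to 1 in a cell, Cdk4 had r of -0.335 with the G1 score, 0.234 with the S score and 0.177 with the G2M score over 238 cells. Cdkn1a had -0.289 with the S score and 0.195 with the G2M score, and Ccnd2 had 0.276 with the S score. Among 10933 genes read in at least 25% of cells, the gene most like Cdk4 had an r of 0.793 and the gene most like Ccnd1 one of 0.364. The files do not pair these genes' IDs with names, and they are not named.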

How the data were processed

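Raw read counts per gene were deposited by the authors as whole numbers, with SAMtools, featureCounts and Subread (version 1.5.0) listed in the submitters' processing notes. For the build, the annotation and the strand setting of counting, these sources give nothing. The authors' deposited cell tables give stimulus, response class, phase and, as a fraction from 0 to 1, a score for each phase. Of 282 samples, 238 are in those tables; 44 are not and entered no comparison, and 357 columns that match no sample were left out. No 2 cells had identical counts.

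Cells were summed per experiment and condition (at least 5 cells for classes and phases, and at least 3 with phase as a further term) and tested with edgeR 4.0.16 (TMM, filterByExpr, quasi-likelihood test, experiment as a term) in R 4.3.3, on the whole table without the 92 spike-ins. The stimulus fit had 1, the class fit 2, the phase fit 5 and the interaction fit 3 residual degrees of freedom. SE is the absolute log2 fold change over the root of F. Alternatives were DESeq2 1.42.0, other filters (the stricter one kept genes of at least 10 CPM in 50% of sums), scalings, sums and left-out plates. Sums per plate treat the 2 plates of 1 experiment as separate units, although the experiment is the replicate. The scripts were tested on simulated data. The 8 members are named throughout, and no other gene is: a list of further cell cycle genes and cell type markers was not analysed, because 0 of the reference table's genes carry the files' IDs. Of the 8 members, 5 had a promoter window. The members and lists were chosen with earlier results of these data known.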

Additional observations from a re-analysis of the deposited data

Results flagged for a closer look

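In groups of 4 to 10 cells, 16 combinations of gene and group were examined for a cell far from the rest. They come from the 5 sustained TNF cells and the 5 oscillatory blank cells of the 2-plate experiment. The cut-off flags about 1 in 20 by chance only where values are normally distributed. Levels of single cells are skewed, so the rate here is not known. Of the 16, 2 stood out, both among the sustained TNF cells. Myc was at 289 CPM in 1 cell, with the next at 39.1 CPM. Cdkn1b was at 45 CPM in 1 cell, with the next at 10.9 CPM.

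The 44 samples outside the cell tables, which entered no comparison and whose group the sources used here do not give, also held reads of the 8 genes. Their depth was lower, with 1805 to 1130586 reads in genes. Cdk6 was read in 43 of the 44, Cdkn1a in 36, Cdk4 in 33, Myc in 27, Ccnd2 in 26, Ccnd3 in 22, Cdkn1b in 9 and Ccnd1 in 4. The median sample had 575 CPM of Cdk6 and 190 CPM of Cdk4.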

How the results depend on the processing

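The number of the 8 genes past the threshold moved as follows. Between TNF and blank it was 0, and 1 by DESeq2. Between oscillatory TNF and non-responsive blank it was 1, became 2 by DESeq2 and by the stricter filter, and 0 without the replicate block (no experiment term), with phase as a term, with at least 10 cells per sum (Cdk6 at adjusted p = 0.05), with spike-in factors and without each plate or experiment in turn (0 to 0). Between oscillatory and transient TNF it was 0, and 1 by DESeq2 and by the stricter filter. Between S and G1, and for TNF at equal phase, it was 0, and 1 by DESeq2 and on sums per plate. For the interaction it was 0, and 1 by DESeq2. It stayed at 0 for transient TNF against non-responsive blank and for G2M against G1 under each alternative run.

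Between TNF and blank, 10 of 96 fitted values of the 8 genes had the opposite sign under an alternative, and in the other comparisons 39 of 642, 17 of them for Myc. Of the differences followed singly, these turned. With spike-in factors, Ccnd2 was at 0.076, Ccnd3 at 0.22, Cdk4 at 0.25, Cdkn1a at 0.18 and Cdkn1b at 0.031, and Cdk6 between transient TNF and non-responsive blank was at 0.069. With a plate or experiment left out, Ccnd3 lay between -0.55 and 0.057, the latter without Plate2 of the 2-plate experiment. Myc was at -0.049 without the replicate block, at -0.17 on sums per plate, and between -0.66 and 0.28 with a plate or experiment left out, at -0.10 without the 1-plate experiment. Ccnd2 between transient TNF and non-responsive blank was at -0.030 with phase as a term, and between -0.065 (without Plate2) and 0.23 with a plate or experiment left out. With the highest cell of each sum left out, the mean log2 ratio over experiments between TNF and blank moved from -0.38 to -0.12 for Cdkn1b and from -0.23 to -0.13 for Cdkn1a. The cause was not tested.

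Of all genes, TNF against blank passed 69 (0 to 673 over the alternatives), oscillatory TNF against non-responsive blank 390 (34 to 1286), transient TNF against non-responsive blank 22 (1 to 308), oscillatory against transient TNF 33 (0 to 636), G2M against G1 230 (137 to 748), S against G1 387 (89 to 1356), TNF at equal phase 255 (86 to 1124) and the interaction 0 (0 to 469). Spike-in factors and cells of 8000 or more detected genes were chosen after seeing the data. In sums with fewer phases the interaction tests 1 term. For Ccnd1 and Cdkn1b, few reads limit what can be detected.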

Other observations

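Some response classes had 5 or more cells in the 2-plate experiment only and give values with no comparison. The 18 non-responsive TNF cells of that experiment had 171 CPM of Ccnd2, 590 CPM of Cdk6, 372 CPM of Cdk4 and 67.2 CPM of Ccnd3. The 5 sustained TNF cells had 236 CPM of Ccnd2, 652 CPM of Cdk6, 373 CPM of Cdk4 and 66.7 CPM of Myc. The 5 blank cells that the authors classed as oscillatory had 202 CPM of Ccnd2, 693 CPM of Cdk6, 534 CPM of Cdk4 and 858 CPM of Cdkn1a. Oscillatory TNF cells of the same experiment had 122 CPM of Ccnd2, 491 CPM of Cdk6, 407 CPM of Cdk4 and 705 CPM of Cdkn1a.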
